A study of Mus musculus with 12 samples.

Results

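The UDP-glucuronosyltransferases (Ugt), cytosolic glutathione S-transferases (Gst) and cytosolic sulfotransferases (Sult) were taken from the expression values by gene symbol: Ugt or Sult followed by a digit, or Gst followed by 1 of the class letters a, k, m, o, p, t or z. This gave 53 of the 17007 listed genes, namely 19 Ugt, 22 Gst and 12 Sult genes. Among the 53, Gstm2-ps1 and Gstp-ps are annotated as processed pseudogenes. The rule uses the symbols alone, and the level of each gene was followed through 4 groups of 3 mouse livers or liver tumors.

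These enzymes carry out phase II metabolism, in which a hormone, bile acid, drug or reactive product is joined to a polar group so that it can leave the hepatocyte. Ugt enzymes sit in the endoplasmic reticulum and transfer glucuronic acid or another sugar from a UDP-sugar. Gst enzymes couple electrophiles to glutathione, and Sult enzymes transfer sulfate from the donor PAPS. In normal liver, hepatocytes hold most of these enzymes, and many of the genes lie in tandem clusters of close copies.

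RNA was sequenced from normal livers (NL) of wild-type C57BL/6 mice, which were neither injected nor treated, and from c-MYC/MCL1/RictorKO Tsc2KO hepatocellular carcinomas (HCCs). The HCCs were raised in mice of the C57BL/6J background with floxed alleles of both genes (Rictor fl/fl; Tsc2 fl/fl). Plasmids for c-MYC, MCL1 and a CMV-driven Cre recombinase were delivered by hydrodynamic tail-vein injection, so that every tumor group carries both transgenes and both deletions by its labels. From day 6 after the injection, mice were gavaged on 6 days of each week with vehicle, MLN0128 or everolimus, each drug at 1 mg/kg/day, for a period of 3 weeks, and were sacrificed at 3.7 weeks according to the labels. Another description of the same sequenced tumors gives 3 days of drug, so the length of treatment behind every drug value below is uncertain. MLN0128 blocks the kinase site of mTOR and so both mTORC1 and mTORC2, whereas everolimus, derived from rapamycin, acts through mTORC1. The hydrodynamic injection reaches part of the hepatocytes, so a tumor sample can also hold cells that took up no plasmid. The age of the mice was not given in the sources used here. No source says that the 3 samples of a group were pooled, and the p-values below measure the spread between these samples.

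Levels are given in FPKM as the authors deposited them, a unit that divides by transcript length and library size. Levels can thus be compared between genes of a library. The library size used here carries a scaling by the authors that was lower in every NL library than in every tumor library. Comparisons between libraries, and above all between NL and tumors, therefore depend on that scaling. Recovered reads numbered 17145999 to 25161014 per library (median 18640952). Rictor stood at 1.65 to 2.57 FPKM in NL, and at 1.05 to 1.5, 1.65 to 2.21 and 1.58 to 1.93 FPKM under vehicle, MLN0128 and everolimus in that order, so that both treated groups lay above vehicle and overlapped NL. Tsc2 was at 4.5 to 5.32 FPKM in NL, and at 2.01 to 2.31, 2.81 to 3.96 and 2.78 to 2.87 FPKM under vehicle, MLN0128 and everolimus in that order, below NL in every tumor. These are values over the whole gene and not over the floxed exons, so they do not check the deletions. MLN0128 replicates 1 and 2 held Xist RNA (191 and 155 FPKM) and no reads of Ddx3y, Eif2s3y, Kdm5d or Uty, whereas Xist was at most 0.0699 FPKM in the other 10 libraries. Every value for MLN0128 therefore also compares mice of different X and Y content, and the main counts of MLN0128 calls are also given without this pair of libraries, where the single library left is assumed to vary like the others. The 10 hepatocyte marker genes (Alb, Apoa1, Apob, Ttr, Serpina1a, Cps1, Tat, Asgr1, Fga and Tdo2) summed to between 82496 and 102092 FPKM in NL. Their sums were between 4253 and 6480 FPKM in the vehicle group, 2156 and 4550 under MLN0128, and 3495 and 8415 under everolimus.

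NL and the tumors differed first in the amount of these transcripts. The Ugt genes summed to 5225 ± 517 FPKM (SD, n = 3) in NL and 214 ± 29.6 with vehicle, which is 4.09% of the NL level. The Sult genes went from 1238 ± 317 to 88.7 ± 34.6 FPKM (7.16%). The Gst genes went from 6320 ± 429 to 1354 ± 228 FPKM, and kept 21.4%. In each family all 3 vehicle-treated tumors lay below all 3 normal livers. With MLN0128 the sums were 2.25% (Ugt), 11.6% (Gst) and 5.87% (Sult) of NL, and with everolimus 2.38%, 14.7% and 6.02%. The FPKM carry a scaling between libraries by the authors, and with plain library totals in its place the vehicle-treated tumors held 7.83%, 41.0% and 13.7% of the NL sums. In bulk tissue, fewer hepatocytes and less RNA per hepatocyte cannot be told apart, and all 10 hepatocyte markers also lay lower in every vehicle-treated tumor than in every normal liver. The part that cell composition takes in the sums was not tested.

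**Figure D1:**
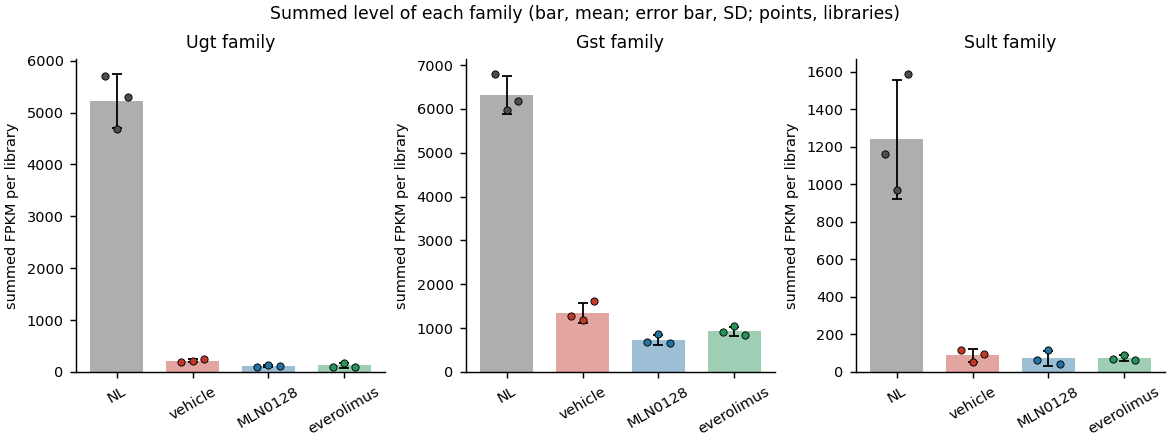
Summed FPKM of the Ugt, Gst and Sult genes (y axes, linear, from 0) in the 4 groups. Bars are means, error bars SD, and points the 3 libraries of each group. The 3 NL points stand above all tumor points in each panel, and the vehicle-treated tumors keep 4.09% of the NL mean for Ugt, 21.4% for Gst and 7.16% for Sult.

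In NL a few genes made up most of each family. Ugt2b5 held 34.6% of the Ugt sum and Ugt2b1 20.9%, both Ugt2b enzymes that conjugate steroids, bile acids and drugs. Gstp1, the main pi-class enzyme, held 53.7% of the Gst sum and Gstm1, the main mu-class enzyme, 19.4%. Sult2a8, a bile acid sulfotransferase of mouse liver, held 70.1% of the Sult sum and Sult1a1, a phenol sulfotransferase, 15.5%. With vehicle Gstp1 and Gstm1 still led the Gst family, at 40.5% and 24.9%. The leading Ugt genes were then Ugt2b34 (27.2%) and Ugt2b35 (26.3%), and the leading Sult gene was Sult1d1 (57.3%), which sulfates catecholamines, followed by Sult2a1 (12.5%) and Sult1c2 (12%), whose shares overlapped. The Sult2 class fell from 70.3% ± 7.48 of the Sult sum in NL to 18.0% ± 1.78 with vehicle, and its share did not overlap between the groups. The share of the single omega-class gene Gsto1 was 1.05% ± 0.208 of the Gst sum in NL, 7.77% ± 0.764 with vehicle, 13.6% ± 0.882 with MLN0128 and 10.5% ± 1.63 with everolimus.

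**Figure D2:**
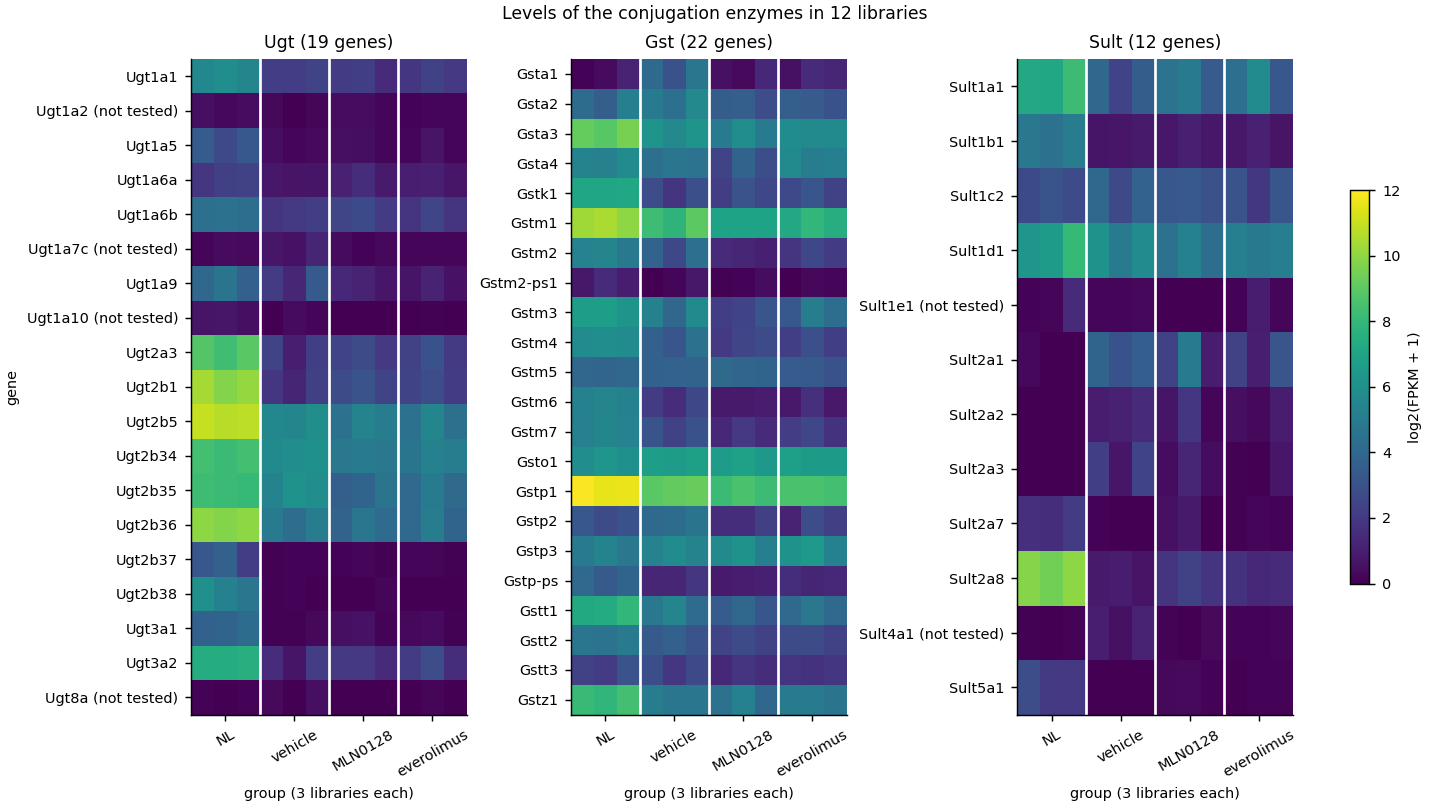
Level of each of the 53 genes as log2(FPKM + 1) (color scale from 0 to 12) in the 12 libraries, with 3 columns for each group and 1 panel for each family. The brightest rows in NL, such as Gstp1, Ugt2b5, Ugt2b1, Gstm1 and Sult2a8, are darker in all 9 tumors, while Gsta1, Sult2a1, Sult2a2 and Sult2a3 are dark in NL and brighter with vehicle.

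The first comparison asked which of these genes differ between the untreated normal liver and the vehicle-treated tumor. A gene entered the tests when 3 or more libraries reached 0.5 FPKM, which kept 47 of the 53 (15 Ugt, 22 Gst and 10 Sult) among 14397 genes. A gene was called where limma's treat test on log2(FPKM + 1) put its change beyond 1.5-fold at a Benjamini-Hochberg adjusted p under 0.05 over all 14397. Of the 47 genes, 32 were called lower and 3 higher with vehicle than in NL, where 16.9% of all tested genes were called lower and 15.9% higher. The median log2 difference was -2.30 over the 47 genes and 0.06 over all tested genes. All 3 tumors lay below all 3 normal livers for 36 of the 47 (35.1% of all tested genes) and above them for 6 (39.0%). By family, 15 of 15 Ugt, 12 of 22 Gst and 5 of 10 Sult genes were called lower, with medians of -3.36, -1.58 and -1.55. With plain library totals the median of all tested genes moved to 0.63, and 26 of the 47 were called lower and 7 higher, where 7.83% of all tested genes were called lower and 36.2% higher.

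**Figure D3:**
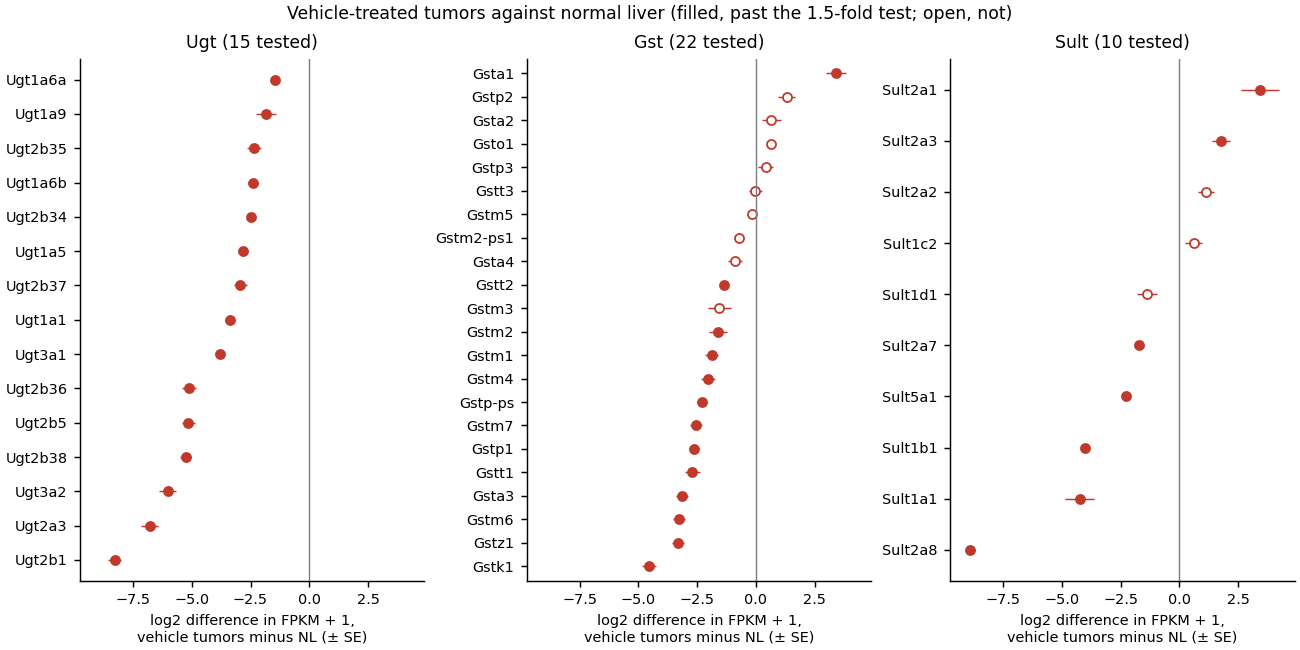
Log2 difference of FPKM + 1 between vehicle-treated tumors and NL (x axis) with its standard error for the 47 tested genes, ordered within each family. Filled points passed the 1.5-fold test and open points did not. All 15 Ugt genes lie to the left of 0, while Gsta1, Sult2a1 and Sult2a3 are the filled points to its right.

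Among the Ugt genes, the Ugt2 and Ugt3 classes fell furthest. Ugt2b1 stood at 1320, 875 and 1100 FPKM in NL and at 2.68, 1.38 and 3.84 FPKM with vehicle. Its log2 difference was -8.28 (SE 0.275, adjusted p = 2.07e-09 by treat), and the NL mean was 417 times the tumor mean. Ugt2a3, which conjugates bile acids, went from 446, 323 and 486 FPKM in NL to 4.43, 1.01 and 3.71 FPKM with vehicle (log2 difference -6.80, SE 0.370, adjusted p = 9.99e-08 by treat). The groups of both genes lie far apart, without overlap. Ugt3a2, of a class that uses sugars other than glucuronic acid, went from 171, 174 and 192 FPKM to 1.91, 0.581 and 3.51 (log2 difference -6.03, SE 0.361). Ugt2b38 stood at 63.7, 37.6 and 25.0 FPKM in NL and at 0.0494, 0.0753 and 0.0227 with vehicle, which rests on 1 to 3 reads per tumor (log2 difference -5.26, SE 0.241). Of the 100-base windows of the Ugt2b38 transcripts 24.2% also occur in Ugt2b5, so reads may be split between them.

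Ugt2b5, the most abundant Ugt gene of NL, fell from 1950, 1690 and 1770 FPKM to 47.4, 44.0 and 59.9 (log2 difference -5.14, SE 0.278). Ugt2b34 was at 338, 286 and 345 FPKM in NL and 51.5, 58.7 and 63.5 with vehicle, and Ugt2b35 at 308, 286 and 263 and 40.0, 70.3 and 58.0. Their log2 differences of -2.46 (SE 0.152) and -2.36 (SE 0.287) were the smallest of the 8 tested Ugt2 genes, and this pair had the highest Ugt means with vehicle. The vehicle shares of Ugt2b35 (21.1% to 34.4%) and Ugt2b5 (21.5% to 25.0%) overlapped. With MLN0128 the highest mean was that of Ugt2b5, and with everolimus that of Ugt2b34. The 8 Ugt2 genes had a median of -5.13.

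The 8 Ugt1 genes share their last exons and differ in the first, so that between 50.4% and 70.9% of the 100-base windows of each occur in another Ugt1 transcript, and their separate levels are uncertain. Their sum was 99.9 ± 12.3 FPKM in NL and 13.7 ± 5.68 with vehicle, which is 13.8% of NL, against 4.004% for the Ugt2 sum and 1.08% for the Ugt3 sum. Ugt1a1, the bilirubin-conjugating enzyme, went from 46.8, 57.9 and 44.6 FPKM to 3.74, 3.48 and 4.57 (log2 difference -3.36, SE 0.205, adjusted p = 4.54e-07 by treat). The smallest difference of a tested Ugt gene was that of Ugt1a6a, which conjugates small phenols (log2 difference -1.47, SE 0.184). Ugt1a9 was called lower too (log2 difference -1.84, SE 0.435), with vehicle values spread over 3.35, 1.41 and 9.43 FPKM.

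In the Gst family the members did not move together. Gstk1, a mitochondrial and peroxisomal enzyme, fell from 132, 132 and 145 FPKM in NL to 6.16, 2.65 and 6.72 with vehicle (log2 difference -4.55, SE 0.303, adjusted p = 6.16e-07 by treat). Gstz1, which works as the maleylacetoacetate isomerase of tyrosine breakdown, went from 271, 240 and 336 FPKM to 32.9, 25.0 and 25.0 (log2 difference -3.30, SE 0.258). Gstm6 went from 37.4, 43.7 and 38.3 FPKM to 3.36, 1.88 and 5.03 (log2 difference -3.27, SE 0.259). Gsta3, the alpha-class enzyme that detoxifies aflatoxin epoxide in the mouse, went from 565, 467 and 736 FPKM to 73.8, 48.5 and 73.2 (log2 difference -3.16, SE 0.258). In each of these 4 genes the tumors lay far below the normal livers.

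Gstp1 and Gstm1, the most abundant Gst genes in both groups, fell as well. Gstp1 was at 3940, 3030 and 3250 FPKM in NL and at 494, 546 and 583 with vehicle (log2 difference -2.65, SE 0.170, adjusted p = 1.10e-06 by treat). Gstm1 was at 1250, 1420 and 991 FPKM in NL and at 313, 224 and 499 with vehicle (log2 difference -1.88, SE 0.271, adjusted p = 0.00128 by treat). With plain library totals Gstm1 was no longer called, nor were Gstm2, Gstm4, Gstt2, Ugt1a6a and Ugt1a9.

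Gsta1, an inducible alpha-class enzyme, rose. It was at 0.097, 0.285 and 1.20 FPKM in NL and at 16.4, 7.10 and 25.4 with vehicle (log2 difference 3.41, SE 0.438, adjusted p = 0.000151 by treat). Its neighbor Gsta2, on chromosome 9 as well, was at 18.0, 11.6 and 34.9 FPKM in NL and at 31.2, 20.1 and 49.3 with vehicle (log2 difference 0.66, SE 0.388), so that the groups overlapped. The ratio of Gsta1 to Gsta2 was at most 0.0344 in the normal livers and 0.353 to 0.526 in the vehicle-treated tumors. Gsta1 transcripts share 80.6% of their 100-base windows with other genes, 64.7% with the predicted gene Gm3776, and 28.4% of those of Gsta2 are shared, so the level of Gsta1 in particular is uncertain.

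Of the other Gst genes, 9 were not called in either direction. Gstp2, which lies next to Gstp1, was at 8.55, 5.65 and 7.22 FPKM in NL and 16.3, 17.8 and 23.5 with vehicle, above NL in every tumor (log2 difference 1.31, SE 0.357), and passed limma's moderated test (adjusted p = 0.00628) but not treat (adjusted p = 0.0927). Gsto1, which reduces dehydroascorbate and arsenic species, was at 57.9, 75.6 and 64.0 FPKM in NL and 104, 97.2 and 111 with vehicle (log2 difference 0.66, SE 0.150, adjusted p = 0.00201 by the moderated test). Gstp1 and Gstp2 share sequence over 25.1% and 46.9% of their windows, and Gstp-ps shares 51.1% of its windows with Gstp2. The ratio of Gstp2 to Gstp1 was 0.00186 to 0.00222 in NL and 0.0326 to 0.0403 with vehicle. The part of shared reads in these ratios was not tested. Gstm5 differed least among the abundant mu-class genes, with 14.6, 13.9 and 15.1 FPKM in NL and 12.3, 12.5 and 13.2 with vehicle (log2 difference -0.18, SE 0.130).

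The Sult family held the largest fall and the largest rise of the 47 tested genes on the log2(FPKM + 1) scale. Sult2a8 was at 891, 692 and 985 FPKM in NL and at 0.824, 0.968 and 0.562 with vehicle, a ratio of means of 1091. Its log2 difference on the scale of FPKM + 1, which understates the change of a gene near 0, was -8.90 (SE 0.187, adjusted p = 1.23e-10 by treat). Sult2a1, the hydroxysteroid sulfotransferase that is known as female-predominant in mouse liver, was at 0.182, 0 and 0 FPKM in NL and at 13.8, 7.25 and 11.1 with vehicle (log2 difference 3.43, SE 0.807, adjusted p = 0.00922 by treat). NL held 2 Sult2a1 reads in all and the vehicle-treated tumors 721, a ratio of 177 with a 95% counting interval of 48.7 to 1461 (exact Clopper-Pearson on the reads). Xist was at 0.0104 to 0.0185 FPKM in these tumors and 0.0202 to 0.0267 in NL.

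Sult2a3 had no reads in NL and stood at 3.62, 0.652 and 4.26 FPKM with vehicle, which was at least 10.4-fold higher when each normal liver is set to a floor of 3 reads (adjusted p = 0.0179 by treat). Without vehicle replicate 1 the adjusted p was 0.0701, and without replicate 3 it was 0.0785. Sult2a2 had no reads in NL either, was at 0.882, 1.15 and 1.68 FPKM with vehicle, at least 3.28-fold higher by the same floor, and passed the moderated test but not treat (adjusted p = 0.0112 and 0.170). Intervals and floors cover counting error only. Sult2a7 fell from 2.03, 1.99 and 3.37 FPKM to 0.073, 0 and 0 (log2 difference -1.74, SE 0.198). Sult2a1 (chr7:13796246-13837409, GRCm38), Sult2a3 (chr7:14067446-14123044), Sult2a8 (chr7:14410686-14446769) and Sult2a7 (chr7:14465051-14494230) lie in 1 cluster, in which called genes moved in both directions. Sult2a2 shares 34.6% of its windows with other Sult2a genes and Sult2a1 11.4%, whereas Sult2a3, Sult2a7 and Sult2a8 share none.

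The phenol and thyroid hormone sulfotransferases of the Sult1 class fell. Sult1a1 was at 149, 146 and 296 FPKM in NL and at 14.7, 4.31 and 10.5 with vehicle (log2 difference -4.25, SE 0.608, adjusted p = 0.000259 by treat). Sult1b1 was at 26.7, 21.6 and 32.5 FPKM in NL and at 0.604, 0.648 and 0.818 with vehicle (log2 difference -4.03, SE 0.166). Sult5a1 went from 6.21, 3.14 and 2.93 FPKM to 0.0211, 0 and 0.0291 (log2 difference -2.27, SE 0.186), on at most 3 reads per tumor. Sult1d1 was at 79.1, 95.6 and 260 FPKM in NL and 67.4, 29.8 and 54.6 with vehicle. It passed the moderated test but not treat (log2 difference -1.37, SE 0.422, adjusted p = 0.0125 and 0.120), and Sult1c2 passed neither (0.60, SE 0.372).

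The genes outside the tests were low everywhere. Ugt1a2, Ugt1a7c, Ugt1a10, Ugt8a, Sult1e1 and Sult4a1 did not reach 0.5 FPKM in 3 libraries. Sult1e1, the estrogen sulfotransferase, had no reads in any tumor given MLN0128 and at most 1.77 FPKM in any library. Sult4a1 was at 0.0369, 0 and 0.0763 FPKM in NL and at 1.04, 0.453 and 1.26 with vehicle, which is 3 reads against 154 and a ratio of 25.2 with a 95% counting interval of 8.45 to 123. With MLN0128 and everolimus it was at 0 to 0.233 FPKM.

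The second comparison asked what MLN0128 does to these genes in the tumors. By treat 4 of the 47 genes were called lower and 0 higher with MLN0128 than with vehicle, where 1.65% of all tested genes were called lower and 0.479% higher. The 4 were Gsta1, Gstp2, Gstm2 and Ugt2b35. At an unadjusted p under 0.05 by limma's moderated test 25 genes passed in either direction, where 42.9% of all tested genes passed. Under the wider rule, a change above 1.5-fold that passes the moderated test after adjustment, 17 genes were lower and 2 higher, where 11.2% of all tested genes were lower and 8.09% higher, and 15 of the 17 were Gst genes. The median log2 difference of the 47 was -0.53 against -0.01 over all tested genes. Without MLN0128 replicates 1 and 2 treat called none of the 47 (0.222% of all tested genes lower and 0.0278% higher), and the wider rule gave 14 lower and 1 higher (7.10% and 4.10%). The log2 differences of Gsta1, Gstp2, Gstm2 and Ugt2b35 were then -2.56, -2.02, -2.55 and -1.19. Of the 10 hepatocyte markers 3 were lower with MLN0128 and 2 with everolimus than with vehicle by the wider rule, and the part of hepatocyte content in these counts was not tested.

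**Figure D4:**
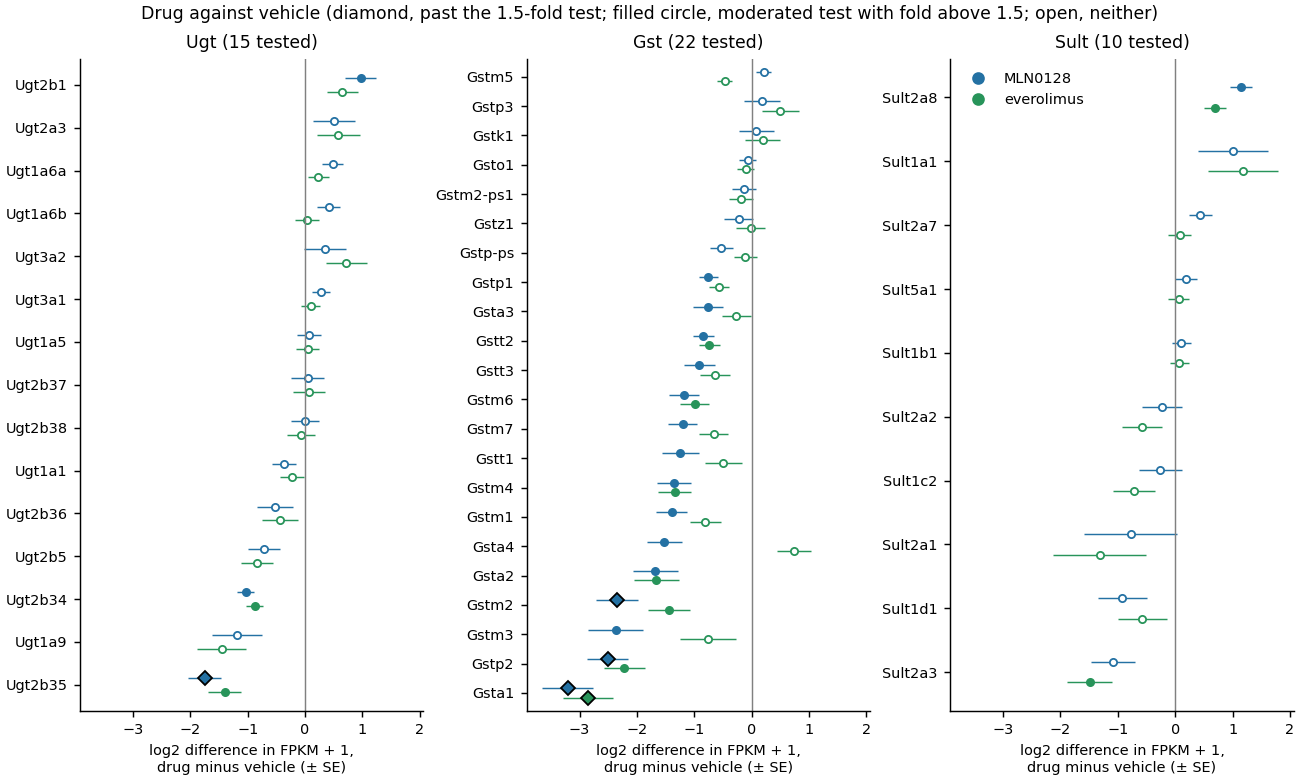
Log2 difference of FPKM + 1 between each drug and vehicle (x axis) with its standard error for the 47 tested genes, MLN0128 in blue and everolimus in green. Diamonds passed the 1.5-fold test, filled circles the moderated test with a change above 1.5-fold, and open circles neither. Most Gst points lie to the left of 0, with Gsta1 furthest left for both drugs, and Gsta4 has its points on opposite sides of 0.

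Gsta1, which was up in the tumors, came down to 0.442, 0.245 and 1.62 FPKM with MLN0128 from 16.4, 7.10 and 25.4 with vehicle. Its log2 difference was -3.21 (SE 0.438, adjusted p = 0.00639 by treat), and the treated values were near the 0.097 to 1.20 FPKM of NL. Gstp2 was at 1.97, 1.95 and 3.91 FPKM with MLN0128 against 16.3, 17.8 and 23.5 (log2 difference -2.51, SE 0.357, adjusted p = 0.0112 by treat), below its NL range of 5.65 to 8.55. Both genes thus had their highest values in the vehicle group and no overlap between vehicle and MLN0128. That group enters both comparisons, so the rise over NL and the fall with MLN0128 are not independent.

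Gstm2 was at 1.66, 1.45 and 1.07 FPKM with MLN0128 against 12.9, 5.11 and 19.9 with vehicle (log2 difference -2.35, SE 0.365, adjusted p = 0.0197 by treat). Ugt2b35 was at 11.5, 13.8 and 23.4 FPKM against 40.0, 70.3 and 58.0 (log2 difference -1.75, SE 0.287, adjusted p = 0.0435 by treat). For these the tumor had already lost expression against NL, and MLN0128 went with a further fall. Leaving out 1 library ended 3 of the 4 calls. Gstp2 was lost without vehicle replicate 3 (adjusted p = 0.0579) and without MLN0128 replicate 1 (0.0603). Gstm2 was lost without either of these (0.0733 and 0.0633), without vehicle replicate 1 (0.0836) and without MLN0128 replicate 2 (0.0515). Ugt2b35 was lost without vehicle replicate 2 or 3, MLN0128 replicate 1 or 2, everolimus replicate 3 or any NL library, with adjusted p between 0.0536 and 0.193. Gsta1 was called whichever single library was left out.

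RefSeq promoters of GRCm38.p6 were found for 43 of the 53 genes. Those of the 4 genes called with MLN0128 are shown, 5′ to 3′, as the 250 bases before each start, because these genes were lower together. They are Gsta1 (chr9:78230419-78230668, plus strand), Gstp2 (chr19:4042222-4042471, minus strand), Gstm2 (chr3:107986421-107986670, minus strand) and Ugt2b35 (chr5:87000610-87000859, plus strand). No letters are marked, and nothing about binding was measured.
Gsta1: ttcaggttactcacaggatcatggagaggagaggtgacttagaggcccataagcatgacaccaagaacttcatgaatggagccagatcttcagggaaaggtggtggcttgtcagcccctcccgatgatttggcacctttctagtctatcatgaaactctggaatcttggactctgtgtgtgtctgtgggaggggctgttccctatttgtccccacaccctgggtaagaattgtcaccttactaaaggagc
Gstp2: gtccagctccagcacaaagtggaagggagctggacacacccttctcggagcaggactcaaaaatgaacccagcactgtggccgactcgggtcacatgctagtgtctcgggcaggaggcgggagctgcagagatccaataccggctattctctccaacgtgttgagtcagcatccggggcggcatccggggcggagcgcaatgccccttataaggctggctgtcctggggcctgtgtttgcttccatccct
Gstm2: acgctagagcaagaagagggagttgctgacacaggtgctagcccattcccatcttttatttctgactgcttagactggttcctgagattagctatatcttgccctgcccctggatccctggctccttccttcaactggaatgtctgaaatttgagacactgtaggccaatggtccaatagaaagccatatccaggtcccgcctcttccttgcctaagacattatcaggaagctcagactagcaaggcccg
Ugt2b35: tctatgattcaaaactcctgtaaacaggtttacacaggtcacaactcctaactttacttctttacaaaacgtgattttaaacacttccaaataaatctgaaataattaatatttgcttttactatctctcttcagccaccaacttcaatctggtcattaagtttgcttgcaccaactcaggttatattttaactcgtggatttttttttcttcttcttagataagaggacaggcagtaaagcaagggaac

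The wider rule gave mostly genes of the alpha, mu and theta classes, with 4 of 4 alpha, 6 of 8 mu, 3 of 3 theta and 2 of 4 pi genes lower with MLN0128, against 2 of 8 Ugt2, 0 of 5 Ugt1 and 0 of 10 Sult genes. Without MLN0128 replicates 1 and 2 a single MLN0128 library is left. Counts by class from that fit both rose and fell, and a single library has no spread of its own. They cannot show whether the contrast between the classes rests on the pair. The median log2 difference of the 47 genes was then -0.77, against -0.53 with all libraries. Gstm3 was at 3.65, 4.26 and 8.32 FPKM with MLN0128 against 38.0, 14.4 and 51.5 with vehicle (log2 difference -2.37, SE 0.482, adjusted p = 0.00373 by the moderated test and 0.0666 by treat). Gsta2 was at 10.5, 11.5 and 6.25 FPKM against 31.2, 20.1 and 49.3 (log2 difference -1.68, SE 0.388). Gstm1 came to 122, 125 and 125 FPKM from 313, 224 and 499 (log2 difference -1.39, SE 0.271). Ugt2b34 came to 26.5, 29.4 and 27.1 FPKM from 51.5, 58.7 and 63.5 (log2 difference -1.04, SE 0.152). In each of these genes every treated tumor lay below every vehicle-treated one.

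The 2 genes that were higher had been among those that fell furthest in the tumor. The vehicle group enters both comparisons, so the fall against NL and the rise with MLN0128 are not independent. Sult2a8 was at 2.47, 4.04 and 2.48 FPKM with MLN0128 against 0.824, 0.968 and 0.562 (log2 difference 1.15, SE 0.187, adjusted p = 0.00117 by the moderated test and 0.146 by treat). Ugt2b1 was at 5.79, 7.53 and 4.47 FPKM against 2.68, 1.38 and 3.84 (log2 difference 0.97, SE 0.275, adjusted p = 0.0199 by the moderated test). Both remained far under their lowest NL values of 692 and 875 FPKM. Sult2a8 was called by treat with a pseudocount of 0.1 or 0.5, with plain library totals and with voom on the recovered reads. Without MLN0128 replicates 1 and 2, Sult2a8 was still higher by the wider rule and Ugt2b1 was not.

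Sult2a1 was the most uneven gene under MLN0128, with 3.94, 30.2 and 0.902 FPKM in replicates 1 to 3, and its log2 difference from vehicle of -0.78 (SE 0.807) passed neither test. Sult2a2 and Sult2a3 were also highest in MLN0128 replicate 2 (2.72 and 1.43 FPKM), 1 of the pair of libraries with Xist RNA. In replicate 1, the other library with Xist, they were at 0.618 and 0.311 FPKM. The part of X and Y content in these values was not tested.

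The third comparison asked the same of everolimus. By treat 1 of the 47 genes was called lower and 0 higher with everolimus than with vehicle, where 0.570% of all tested genes were called lower and 0.0347% higher. At an unadjusted p under 0.05 by the moderated test 20 genes passed in either direction, where 26.8% of all tested genes passed. By the wider rule 10 genes were lower and 1 higher, where 4.69% of all tested genes were lower and 2.03% higher. The median log2 difference of the 47 was -0.44 against 0.03 over all tested genes. The vehicle-treated tumors are those of the MLN0128 comparison, so the values of the drugs against vehicle are not independent of each other.

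The called gene was Gsta1, at 0.443, 1.80 and 1.43 FPKM with everolimus against 16.4, 7.10 and 25.4 with vehicle (log2 difference -2.86, SE 0.438, adjusted p = 0.0261 by treat). The groups did not overlap. The call was lost without vehicle replicate 1 (adjusted p = 0.118), vehicle replicate 3 (0.117), everolimus replicate 1 (0.149) or everolimus replicate 3 (0.0692). Gstp2 was at 1.24, 6.18 and 3.86 FPKM against 16.3, 17.8 and 23.5 (log2 difference -2.22, SE 0.357, adjusted p = 0.00382 by the moderated test and 0.0563 by treat).

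The other genes past the wider rule were Gsta2, Gstm2, Gstm4, Gstm6, Gstt2, Ugt2b34, Ugt2b35 and Sult2a3, all lower, and Sult2a8, higher. Gsta2 was at 11.4, 9.79 and 7.09 FPKM with everolimus (log2 difference -1.66, SE 0.388, adjusted p = 0.0222 by the moderated test). Gstm2 was at 2.52, 5.04 and 3.23 FPKM (log2 difference -1.43, SE 0.365). Gstm4 was at 3.63, 6.62 and 3.67 FPKM against 11.9, 8.39 and 21.3 with vehicle (log2 difference -1.35, SE 0.295). These 3 genes lay below vehicle in every everolimus-treated tumor.

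In the Ugt family Ugt2b35 was at 16.1, 29.7 and 16.9 FPKM with everolimus (log2 difference -1.40, SE 0.287) and Ugt2b34 at 24.7, 37.4 and 31.8 (log2 difference -0.88, SE 0.152), below vehicle in every tumor. In the Sult family Sult2a3 was at 0.052, 0.0324 and 0.670 FPKM against 3.62, 0.652 and 4.26 (log2 difference -1.49, SE 0.388), where the groups overlapped by 1 library. Sult2a8 was at 2.43, 1.53 and 1.72 FPKM, above vehicle in every tumor (log2 difference 0.69, SE 0.187, adjusted p = 0.0394 by the moderated test). Ugt2b38 had no reads with everolimus and 1 to 3 per library with vehicle, so no difference was detectable at this depth, whereas NL was at least 631-fold higher than everolimus by a floor of 3 reads per library.

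**Figure D5:**
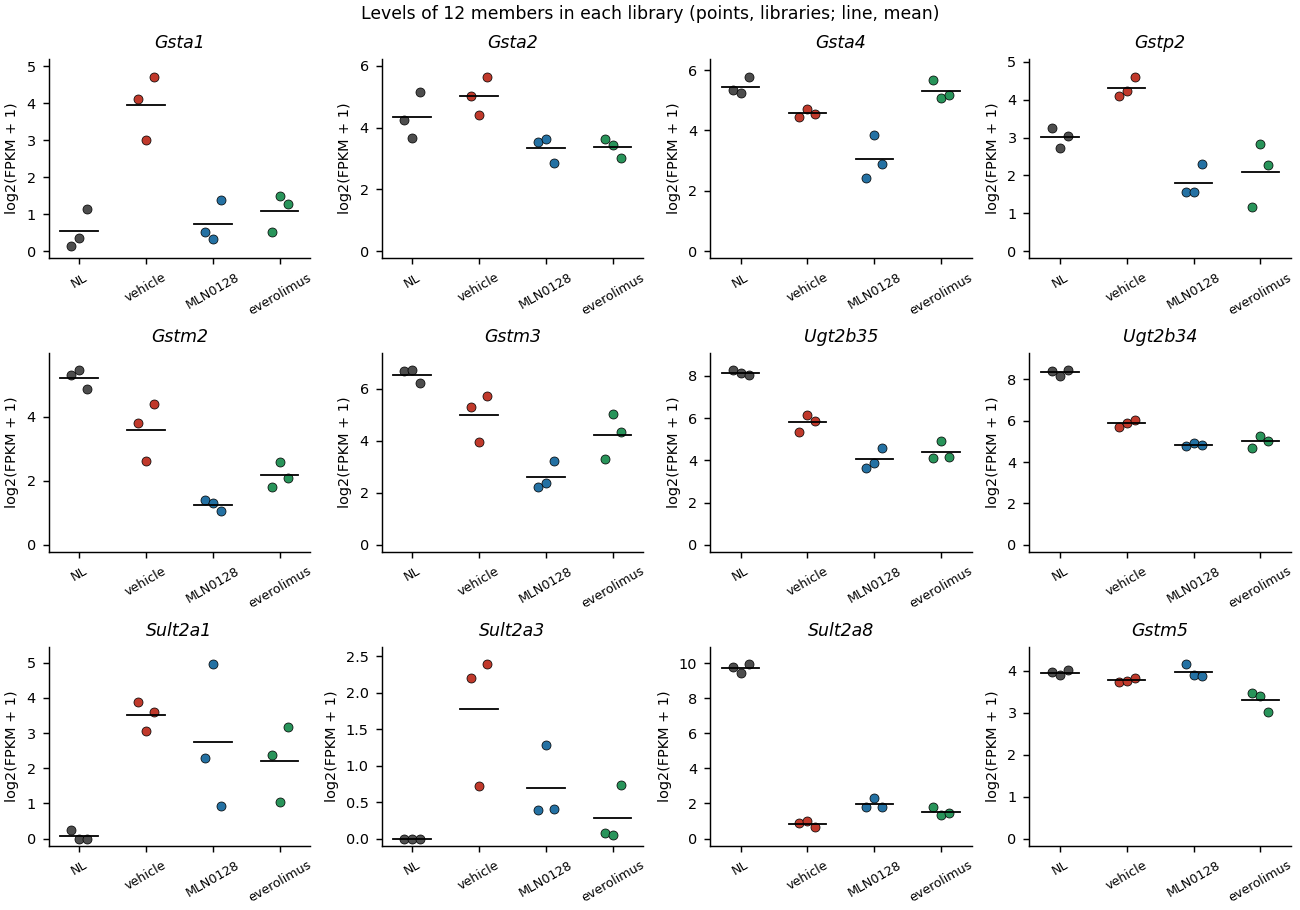
Levels of 12 genes as log2(FPKM + 1) in each library, with points for libraries and a line for the group mean. Gsta1 and Gstp2 are highest with vehicle and low with both drugs, Gstm2 and Ugt2b35 step down from NL to vehicle to the drugs, and Gsta4 is low with MLN0128 but not with everolimus.

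The drugs were then set against each other, which is also the test of whether their effects against vehicle differ. By treat 0 of the 47 genes were called in either direction, where 0.00695% of all tested genes were called higher and 0.0347% lower under MLN0128 than under everolimus. An unadjusted p under 0.05 by limma's moderated test was reached by 6 of the 47 and by 27.0% of all tested genes, and the wider rule gave 1 higher and 1 lower gene (2.30% and 3.00% of all tested genes). The lower gene was Gsta4, the alpha-class enzyme that removes 4-hydroxynonenal, a product of lipid peroxidation. It was at 4.42, 13.3 and 6.37 FPKM with MLN0128 and at 50.3, 32.7 and 35.1 with everolimus, on either side of the 20.9, 25.1 and 22.6 FPKM of vehicle, and no 2 of the 3 groups overlapped. The log2 difference between the drugs was -2.26 (SE 0.299, adjusted p = 0.00442 by the moderated test), from -1.52 for MLN0128 and 0.74 for everolimus against vehicle, of which the first passed the moderated test (adjusted p = 0.00314) and the second did not (0.141). The everolimus values lay beside the 39.8, 36.5 and 54.2 FPKM of NL. Gsta4 shares no 100-base window with another gene. Treat called it between the drugs without MLN0128 replicate 2 (adjusted p = 0.00181), without both MLN0128 replicates 1 and 2 (0.0475) and with voom on the recovered reads (0.0353).

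The higher gene was Gstm5, at 16.9, 14.0 and 13.7 FPKM with MLN0128 and 10.1, 9.61 and 7.10 with everolimus (log2 difference 0.68, SE 0.130, adjusted p = 0.0128 by the moderated test). Gstm3 came next, with 3.65, 4.26 and 8.32 FPKM against 8.92, 31.4 and 19.1, and did not pass after adjustment (log2 difference -1.61, SE 0.482, adjusted p = 0.0579). For Gsta1 the log2 difference between the drugs was -0.35 (unadjusted 95% interval -1.31 to 0.60), for Gstp2 -0.29 (-1.07 to 0.49) and for Ugt2b35 -0.35 (-0.98 to 0.27). For Gstm2 it was -0.91 (-1.71 to -0.11), lower with MLN0128 and with an interval that leaves out 0, but it did not pass after adjustment (adjusted p = 0.136 by the moderated test). The intervals of all 4 genes hold differences of more than 1.5-fold, so the drugs are not shown to act alike on them. Without MLN0128 replicates 1 and 2, Gsta4 was called lower by treat (0.0347% of all tested genes lower and 0.0208% higher) and by the wider rule, and no gene was higher by the wider rule (0.646% lower and 0.507% higher).

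Neither drug brought the families to the level of NL. Against NL, treat called 34 of the 47 genes lower with MLN0128 (20.2% of all tested genes) and 34 lower with everolimus (18.4%). Without MLN0128 replicates 1 and 2 the count under MLN0128 was 35 lower and 0 higher (17.8% and 13.9% of all tested genes). With all libraries it called 1 gene, Sult2a1, higher with MLN0128 (17.1% of all tested genes), and 0 higher with everolimus (16.9%), where 2 genes were higher by the wider rule (27.5%). Gsta1 and Sult2a3 were called higher than NL in the vehicle group and in neither treated group. The Sult2a1 call against NL under MLN0128 (log2 difference 2.65, adjusted p = 0.0382 by treat) was lost without MLN0128 replicate 1 (adjusted p = 0.0567) or 2 (0.132) and without any 1 of the NL libraries (0.0697 to 0.0860).

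Genes that supply or remove the substrates of these enzymes were counted with the same tests, in lists chosen with earlier results known and described by counts alone. Of 5 genes listed for UDP-sugars and glucuronidation (Ugp2, Ugdh, Slc35d1, Slc35b1 and Gusb), 2 were called lower and 1 higher with vehicle than in NL. Ugp2, which makes UDP-glucose, went from 313 ± 49.3 FPKM (SD, n = 3) to 95.9 ± 18.6 (log2 difference -1.70). With MLN0128, 3 of the 5 were called lower than with vehicle: Ugp2 (-1.50), Ugdh, which makes UDP-glucuronic acid (-1.41), and Slc35b1 (-1.42). Without MLN0128 replicates 1 and 2 treat called none of them, and all 5 were lower by the wider rule with or without that pair. Everolimus gave no call by treat, and 2 of the 5 were lower by the wider rule.

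Of 12 tested genes of glutathione synthesis and reduction, 2 were called higher and 3 lower with vehicle than in NL. The shares over all tested genes were 15.9% and 16.9%. Ggt1, which breaks down extracellular glutathione, rose from 0.0452 to 55.8 FPKM (log2 difference 5.76), and Slc7a11, the cystine importer, from 0.00887 to 10.5 FPKM (3.47). Chac2 (-2.20), Gclm (-1.41) and Cbs (-1.33) fell. Slc7a11 was called lower with both drugs than with vehicle (-3.33 with MLN0128 and -2.86 with everolimus). Chac1, which degrades glutathione, was at 27.1 FPKM with vehicle, 0.486 with MLN0128 and 16.9 with everolimus, and was called lower with MLN0128 than with vehicle (-4.23) and than with everolimus (-3.55). Cth, which makes cysteine, was called lower with MLN0128 than with vehicle (-2.12). These MLN0128 calls of Slc7a11, Chac1 and Cth were also made without replicates 1 and 2. Of 10 genes of PAPS supply and sulfate handling, 3 were called lower in vehicle-treated tumors, namely Suox (-4.12), Papss2, a PAPS synthase (-3.31), and Slc26a1 (-2.68), and none was called with either drug, where 2 were lower with MLN0128 (0 without replicates 1 and 2) and 0 with everolimus by the wider rule.

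The next list held 9 tested genes of microsomal and other transferases or proteins with a transferase-like domain. Of these, 5 were called higher and 1 lower with vehicle than in NL (15.9% and 16.9% of all tested genes). The lower one was Mgst1, the abundant microsomal enzyme, which went from 3487 to 183 FPKM (log2 difference -4.24). Those that rose furthest were Vars (3.04), a valyl-tRNA synthetase, Mgst2 (2.20), a microsomal transferase, Eef1g (2.07), a translation elongation factor subunit, and Clic4 (1.86), a chloride intracellular channel protein. Neither drug gave a call by treat in this list, and the wider rule gave 1 higher and 4 lower with MLN0128 (0 and 2 without replicates 1 and 2) and 3 lower with everolimus. Of 17 genes of methyl, acetyl and amino acid conjugation, 14 were called lower and 0 higher, with Inmt from 1453 to 0.711 FPKM (-9.75), Mettl7b (-5.32), Slc27a5 (-5.21) and Acsm1 (-5.11) furthest down. Neither drug gave a call by treat here, and the wider rule gave 1 higher and 1 lower with MLN0128 (0 and 0 without replicates 1 and 2) and 1 lower with everolimus. Of 15 transporters of conjugates, 12 were called lower, Slco1a1 furthest (-7.76), and 3 higher, the efflux pumps Abcb1b (2.70), Abcc4 (2.58) and Abcb1a (1.78). Abcg2 was the transporter called lower with MLN0128 than with vehicle (-1.31), a call that was lost without replicates 1 and 2, and everolimus gave none by treat and 1 higher and 2 lower by the wider rule.

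Of 22 regulators of conjugation genes, 10 were called lower and 0 higher with vehicle than in NL (16.9% and 15.9% of all tested genes). Furthest down were Cebpa (-2.99), Nr1i3, which encodes the receptor CAR (-2.55), Foxa3 (-2.27) and Ppara (-2.10). Nfe2l2, which encodes NRF2, was at 14.3 FPKM in NL and 17.2 with vehicle, and Hnf4a at 218 and 104 (log2 difference -1.07, called). None of the 22 was called between a drug and vehicle by treat, and by the wider rule 4 were higher and 1 lower with MLN0128 (0 and 3 without replicates 1 and 2) and 0 changed with everolimus. Among the 4 tested cholangiocyte markers Krt19 (4.13), Epcam (1.5) and Sox9 (1.34) rose with vehicle, while the fourth, Spp1, was not called (-0.61). Krt19 and Sox9 fell with MLN0128 (-4.05 and -1.51), calls that were lost without replicates 1 and 2, and Krt19 with everolimus (-4.04). The 5 cholangiocyte markers listed summed to between 40.2 and 43.6 FPKM in NL, 36.8 and 92.5 in the vehicle group, 10.2 and 28.1 under MLN0128, and 17.2 and 61.8 under everolimus. These sums overlapped between NL and vehicle and between vehicle and everolimus. Taken singly, 4 of the 5 markers were higher in every vehicle-treated tumor than in every normal liver, and 0 were lower. With each drug 3 of the 5 were lower in every treated tumor than in every vehicle-treated one, and 0 were higher. The part of cholangiocyte content in the values of Gsta1 was not tested. The sums of markers of other cells differed between groups as well, but single markers did not all move one way. With vehicle against NL, treat called 1 macrophage marker higher and 3 lower. It called 0 endothelial markers higher and 3 lower, and 2 stellate and fibroblast markers higher and 2 lower. Of the 2 tested lymphocyte markers it called none. The 8 macrophage markers summed to 274 to 333 FPKM in NL, and to 91.1 to 132, 38.5 to 54.8 and 63.5 to 185 FPKM under vehicle, MLN0128 and everolimus in that order, so that NL lay above every tumor and vehicle above MLN0128. The 6 endothelial markers summed to 49.8 to 59.7 FPKM in NL, and to 12.9 to 19, 10.2 to 14 and 10.7 to 18.5 FPKM under vehicle, MLN0128 and everolimus in that order, with NL above every tumor. The 7 stellate and fibroblast markers summed to 19.9 to 24.9 FPKM in NL, and to 23.7 to 57.8, 40.8 to 69.2 and 44.2 to 57.4 FPKM under vehicle, MLN0128 and everolimus in that order, and the 7 lymphocyte markers to 2.44 to 3.16 FPKM in NL, and to 1.25 to 1.27, 1.27 to 3 and 0.826 to 2.1 FPKM under vehicle, MLN0128 and everolimus in that order. The part of these cells in the values of the conjugation genes was not tested.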

How the data were processed

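RNA of 3 normal livers and 9 liver tumors was sequenced from poly(A) or rRNA-depleted libraries. The submitters' processing notes name FastQC (0.11.7) and the GRCm38 build. Reads were counted per Ensembl gene, and the authors deposited linear FPKM. As recovered from the values, these carry a scaling factor per library (0.585 to 0.595 in NL and 1.10 to 1.37 in tumors), so that changes are relative to that scaling. The aligner, the counter and the handling of reads shared by gene copies were not given in the sources used here. Whole reads were recovered from the FPKM steps: 98.2% to 98.8% of values under 20 reads came out whole (tolerance 0.1 read), and 3 reads on a transcript of 2 kb correspond to 0.0496 to 0.144 FPKM.

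All 12 libraries entered 1 limma model (3.58.1, R 4.3.3) on log2(FPKM + 1), with a mean-variance trend. The main test was treat against a fold of 1.5 with Benjamini-Hochberg adjustment over 14397 genes. The moderated test of the same model gave the wider rule. The step was tested on simulated data. Alternatives were other pseudocounts, filters, scalings, priors, a fit of the compared groups only, a replicate block, voom on recovered reads, and each library left out. Gene positions are from GENCODE M21, where 16871 symbols matched. The members and lists were chosen with earlier results of these data known. Named genes are the 2 most abundant per family in NL and in vehicle-treated tumors, up to 4 called per family and direction against NL, the genes called for a drug, up to 5 per family and direction under the wider rule, and up to 4 called per list and direction. Further genes, among them Ugt1a1, Gsto1, Gstm5 in NL, Sult4a1, Hnf4a, Nfe2l2 and Spp1, were named after their values were seen, as were the shared 100-base windows and the floors of 3 reads. Promoter motifs were searched and are not reported here. The wider rule without MLN0128 replicates 1 and 2 was added after seeing the data.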

Additional observations from a re-analysis of the deposited data

Results flagged for a closer look

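The direct test here was limma's moderated test of MLN0128 against everolimus, with Benjamini-Hochberg adjustment over all tested genes. By it the effects of the drugs against vehicle differed for 2 of the 47 genes, 1 higher and 1 lower with MLN0128. Of all 14397 tested genes 575 were higher and 797 lower by this test. With a change above 1.5-fold as well, 2.30% of all tested genes were higher and 3.00% lower. Treat called 0 of the 47 between the drugs. For Gsta4 the log2 difference was -2.26, with 3 of 3 MLN0128 libraries below all everolimus libraries. For Gstm5 it was 0.68, with 3 of 3 MLN0128 libraries above.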

How the results depend on the processing

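For 35 pairs of a named gene and a comparison, 26 alternatives gave 910 values. Of these, 831 kept direction and side of the threshold, 31 lost the call, 48 gained it and 0 changed sign. By treat 20 of the 35 pairs were called. The other 15 were named because they passed the moderated test with a change above 1.5-fold. Their gains by the moderated test, 15 with and 15 without the fold limit, were thus fixed by the choice of pairs. The 20 called by treat could not lose the call there either. Numbers in brackets are the counts over all 14397 tested genes (14289 for voom). Members called higher with vehicle than in NL numbered 7 with plain library totals (5215). They were 6 by the moderated test with (3905) or without (5176) the fold limit, and 5 with only the compared groups fitted (2407). Higher with MLN0128 than vehicle were 1 with a pseudocount of 0.1 (218) or 0.5 (134), plain totals (200) or voom (282), and 2 by the moderated test (2142, or 1165 with the fold limit). Lower were 17 by the moderated test, 2 with the compared groups only, 1 to 5 with 1 library left out and 0 without MLN0128 replicates 1 and 2. By the wider rule without that pair, a choice made after seeing the data, 1 was higher and 14 lower than vehicle, and 0 higher and 1 lower than everolimus. For everolimus against vehicle, 1 was higher by the moderated test (544, or 292 with the fold limit). Lower were 0 with a pseudocount of 0.1 (136) or the compared groups only (36), 11 by the moderated test (871) and 10 with the fold limit (675). With voom 2 were lower (156), and with 1 library left out 0 to 3 (50 to 122). Between the drugs the moderated test gave 1 higher (575) and 1 lower (797). There voom gave 1 lower (11), and leaving out 1 library 0 to 1 (2 to 14). Higher with MLN0128 than in NL were 3 with a pseudocount of 0.1 (3471) or the moderated test (5340), and 4 with plain totals (5922). They were 0 with voom (3217), the compared groups only (2328) or the replicate block (2397). With 1 library left out they were 0 to 1 (2143 to 2502). Higher with everolimus than in NL were 2 with a pseudocount of 0.1 (3381), plain totals (5206) or quantile normalization (2398). They were 1 with a pseudocount of 0.5 (2850) or the compared groups only (2416). The moderated test gave 3 (5172), or 2 with the fold limit (3961), and leaving out 1 library 0 to 1 (2145 to 2524). Of all tested genes, 2464 were lower with MLN0128 than vehicle by the moderated test, or 1610 with the fold limit. There the compared groups only gave 150, and leaving out 1 library 105 to 281. Against NL, plain totals gave 5922 higher with MLN0128 and 5206 with everolimus, and the moderated test 5340 and 5172. The cause was not tested. Deviations of same-numbered libraries from their group means correlated at -0.289 to 0.148 (1 of 18 pairs over 0.1). No pairing by number was seen, but with 3 libraries a group these correlations cannot exclude one. The replicate block changed no other count by over 1.5 times. With 3 libraries a group, genes near 0 reads, such as Ugt2b38 and Sult5a1 in tumors, were limited by depth.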
